A study of Homo sapiens with 16 samples.

Results

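Kinesins are motor proteins that turn ATP hydrolysis into movement along microtubules or into their disassembly. A set of them builds and remodels the mitotic spindle and the midzone between separating chromosomes, and in many dividing cells their genes are transcribed mainly late in the cell cycle. Others carry vesicles, organelles and cilia components, which matters most in long cells such as neurons. The members described here are the rows of the deposited table whose name starts with KIF followed by a digit or a C. There are 42 such rows among 27043, and they were sorted into 14 mitotic, 17 transport and 11 other kinesins by textbook role. The last group holds motors of cilia or signalling and those whose role is mixed or unsettled.

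The cells were SK-N-AS, an established human neuroblastoma line, grown untreated in serum-containing RPMI1640, detached with versene and sorted singly into 384-well plates for MARS-seq, a plate-based method that counts transcript 3′ ends. The labels list 16 samples of this one condition, but none of the 603 barcodes that head the table's columns can be tied to one of them. All cells were therefore pooled as a single sample, and no test between samples was possible. The cells had from 1000 to 42404 counts each, with a median of 2106, and the deepest cell held 2.76% of all counts. The table's barcodes start to repeat after column 316, and 239 of 364 barcodes occur on both sides. The 316 columns before this point and the 287 after it are called barcode sets 1 and 2 and are used only to repeat a value. VIM stood at 5649 CPM (counts scaled to the customary fixed total) and HAND2 at 273 CPM, while the catecholamine gene DBH had 0 counts. Of 8 markers of blood, endothelial, epithelial, liver and glial cells 5 were at 0. PECAM1 and EPCAM had 2 and 1 counts and PTPRC 29, or 18.9 CPM, and the part of such cells in the results was not tested.

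Mitotic kinesin genes are known for a promoter layout in which CCAAT boxes lie upstream of a cell cycle element, written TTTGAA in its usual form, close to the transcription start. The sequences below were picked after the windows had been searched, to show this layout in 5 mitotic kinesins whose elements lie upstream of the start, and KIF5B is shown as the leading transport motor. Each is the 100 bases before the RefSeq start, in gene orientation, with GRCh38.p14 coordinates. KIF23 is at chr15:69414249-69414348 (plus strand), KIF4A at chrX:70290004-70290103 (plus), KIF11 at chr10:92593030-92593129 (plus), KIF20A at chr5:138179012-138179111 (plus), KIF22 at chr16:29790651-29790750 (plus) and KIF5B at chr10:32056426-32056525 (minus). Capitals mark the CCAAT box, which appears as ATTGG where it lies on the opposite strand. They also mark the TTTGAA element, which appears as TTCAAA on the opposite strand. The related forms of this element, each reading the same on both strands, are TTCGAA in the KIF22 sequence and the form TTTAAA in that of KIF20A.
KIF23: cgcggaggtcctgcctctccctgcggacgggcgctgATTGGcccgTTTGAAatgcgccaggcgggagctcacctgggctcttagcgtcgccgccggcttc
KIF4A: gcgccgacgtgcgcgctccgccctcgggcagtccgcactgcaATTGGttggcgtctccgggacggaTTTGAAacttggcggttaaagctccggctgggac
KIF11: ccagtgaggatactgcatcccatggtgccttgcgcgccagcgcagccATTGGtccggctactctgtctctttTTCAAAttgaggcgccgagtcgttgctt
KIF20A: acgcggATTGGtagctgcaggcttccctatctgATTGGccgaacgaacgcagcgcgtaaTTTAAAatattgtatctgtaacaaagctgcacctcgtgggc
KIF22: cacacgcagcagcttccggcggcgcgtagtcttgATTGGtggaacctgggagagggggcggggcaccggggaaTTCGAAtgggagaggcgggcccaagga
KIF5B: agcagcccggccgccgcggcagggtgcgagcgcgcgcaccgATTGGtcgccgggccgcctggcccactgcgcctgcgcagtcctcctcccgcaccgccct

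Searched over windows from 250 bases before to 50 after the start, on both strands, CCAAT was present in 8 of the 9 mitotic kinesins with at least 30 counts. KIF2C was the exception. The box was present in 3 of the 7 transport kinesins of that level that had a window, and in 35.3% of the 6797 windows of genes with at least 30 counts (34.6% of all 35116 windows). TTTGAA was present in 6 of the 9 mitotic kinesins, KIF11, KIF14, KIF18B, KIF23, KIF4A and KIFC1, against 9.50% of windows of genes at that level and 15.2% of all windows. Of the 7 transport kinesins only KIF5B held it, at -140 to -135 from the start. In the mitotic genes TTTGAA lay near the start, from -55 to -50 in KIF23, -34 to -29 in KIF4A and -28 to -23 in KIF11, and within the first 10 transcribed bases in KIF14, KIF18B and KIFC1. TTCGAA was present in KIF22, against 1.77% of windows at that level. It lay at -27 to -22 from the start shown above and at -244 to -239 from another annotated start of KIF22. TTTAAA, a form added after the windows were seen, was present in 4 of the 9, in KIF20A at -41 to -36, in KIF2C across the start and in KIF14 and KIF23 far upstream, and in none of the 7 transport kinesins, against 7.65% of windows at that level. The E2F-type forms TTTCCCGC and TTTGGCGC were in none of the 9, and in 2.77% and 1.16% of windows at that level. These are matches of letters in 1 window per start, for 34 of the 42 genes that have one in the table. A kinesin was taken to hold a motif if any of its windows did, and 7 of the 34 have more than 1 window. The shares beside them are of single windows, so the 2 measures are not alike.

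The kinesins that were on divided between spindle and transport motors. Counts were found for 36 of the 42 rows, where 13641 of all 27043 rows had a count. At least 30 counts were held by 21 kinesin rows, a level for which the share of all rows is not given here. The kinesin counts numbered 1764 in all (1147 CPM, 1094 to 1202, exact Poisson interval at 95%). Mitotic kinesins gave 56.1% of these counts (644 CPM, 604 to 685), transport kinesins 35.7% (410 CPM, 378 to 443) and the others 8.16% (93.7 CPM, 79.0 to 110.3). Levels are per 3′ end and not per length, so a level compares genes only as far as their 3′ ends are captured and annotated alike, which was not tested. Intervals here and below cover counting error only.

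Among the mitotic motors KIF2C was the highest, at 132 CPM (114 to 151), and 22.1% of cells held at least 1 of its counts. It encodes MCAK, which takes microtubules apart at their ends and corrects faulty attachments at kinetochores. KIF23, the motor of the centralspindlin complex that organises the midzone, stood at 107 CPM (91.0 to 124), and the chromokinesin KIF22, which pushes chromosome arms toward the spindle equator, at 103 CPM (88.0 to 121). These 3 genes gave 53.1% of the mitotic kinesin counts, and the intervals of KIF2C, KIF23 and KIF22 overlap. KIF20A, which acts in the midzone and brings the chromosomal passenger complex there, followed at 80.0 CPM (66.5 to 95.4), and KIF18B, a partner of KIF2C at microtubule ends, at 63.7 CPM (51.7 to 77.7).

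KIF11 encodes Eg5, the motor that pushes the spindle poles apart. Its level was 48.1 CPM (37.8 to 60.4), spread over 9.45% of cells. KIF4A, which sets the length of the midzone with PRC1, reached 39.7 CPM, KIFC1, a minus-end motor that focuses spindle poles, 30.6 CPM, and KIF14, which works with citron kinase in cytokinesis, 25.4 CPM (18.0 to 34.7). The remaining mitotic rows were near the limit of detection. KIF15 and KIF4B had 7 counts each, KIF18A and KIF20B 4 each, and KIF2B had 0. The exact intervals of KIF2B reach up to 2.40 CPM and 0.610% of cells with a count. KIF4B is a near-identical copy of KIF4A, so how reads were split between them is uncertain. CENPE, a kinetochore kinesin that the naming rule leaves out, stood at 37.1 CPM (28.1 to 48.0).

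KIF5B, the ubiquitous heavy chain of conventional kinesin, led the transport motors at 89.8 CPM (75.4 to 106) and gave 21.9% of their counts. Its neuronal relatives were nearly silent, with 7 counts of KIF5C and 0 of KIF5A. The neuronal synaptic vesicle motor KIF1A also had 0 counts, while its broadly expressed relatives KIF1C and KIF1B, which carry vesicles and mitochondria, stood at 39.7 and 29.9 CPM. KIF13A and KIF13B, which carry endosomal vesicles, stood at 34.5 and 22.8 CPM, KIF21A, which slows microtubule growth, at 30.6 CPM, and the minus-end motor KIFC3 at 41.0 CPM.

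The subunits of heterotrimeric kinesin were uneven. KIF3B stood at 48.8 CPM (38.4 to 61.1) and KIF3C at 40.3 CPM (30.9 to 51.7), whereas KIF3A, with which either of them pairs, had 7 counts (4.55 CPM, 1.83 to 9.38) and the linker gene KIFAP3 13 counts (8.45 CPM, 4.50 to 14.5). The intervals of KIF3A and KIF3B do not overlap. KIF17, KIF21B, KIF16B and KIFC2 had 3, 2, 12 and 19 counts. Of the 11 other kinesins, KIF9, known from motile cilia, stood at 24.7 CPM, KIF26A, which works in signalling rather than movement, at 22.8 CPM and KIF2A, a microtubule-disassembling motor of spindle poles and neurons, at 19.5 CPM, with KIF26B just below the 30-count minimum at 29 counts. KIF12, KIF19 and KIF25 had 0 counts, and KIF7, KIF24, KIF27 and KIF6 had 8, 2, 1 and 1.

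**Figure D1:**
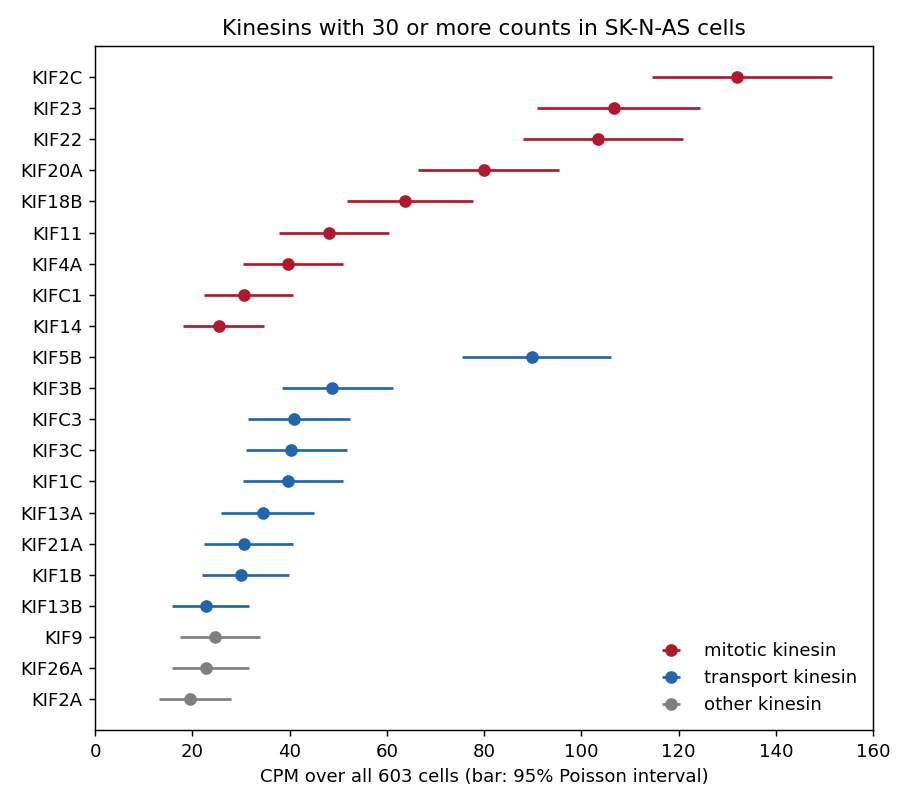
Level of the 21 kinesins with at least 30 counts, in CPM over all 603 cells (horizontal axis, linear from 0), grouped by textbook role. Points are summed levels with 95% Poisson intervals; KIF2C at 132 CPM is the highest mitotic motor and KIF5B at 89.8 CPM the highest transport motor.

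The mitotic group stood at 645 CPM in barcode set 1 and 643 CPM in set 2, though KIF14 had 27 and 12 counts there and KIF20A stood at 91.6 and 67.9 CPM. The transport group stood at 457 CPM in set 1 and 361 CPM in set 2, with KIF5B at 106 and 73.2 CPM, KIFC3 at 49.6 and 31.9 CPM and KIF21A at 38.2 and 22.6 CPM. The deepest cell held 11 of the 138 KIF5B counts, 10 of the 164 KIF23 counts, 9 of the 203 KIF2C counts and 7 of the 61 KIF4A counts.

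Each cell saw few of these transcripts. At an equal depth of 1100 counts, to which 560 cells were thinned at random and below which 43 cells fell, 63.8% of cells had any kinesin count, against 78.1% of all cells without thinning. At that depth 40.4% of cells had a mitotic and 34.8% a transport kinesin count, and 15.4% had both. Without thinning the shares were 55.7% and 54.2%. Different mitotic kinesins numbered 3 in 21 cells, 4 in 3 cells and 5 in 1 cell, while 4 cells had 3 different transport kinesins and 1 cell had 4. KIF22 was found in 11.4% of thinned cells, KIF2C in 10.4%, KIF23 in 8.75% and KIF5B in 7.68%. No cell type that lacks kinesins is in the table, so these shares could not be set against a background of free RNA.

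The relation of each kinesin to MKI67, TOP2A and CCNB1 was then read across the thinned cells. MKI67 and TOP2A mark cycling cells and CCNB1 is the cyclin of mitotic entry. MKI67 gave 68.3% of the counts of these 3 markers, CCNB1 22.8% and TOP2A 8.90%. Only 47 cells had 2 or more marker counts, under the minimum of 50 set for that grouping, so the 162 cells with at least 1 were compared with the 398 cells with 0. Their median totals were 2316 and 2184 counts, and the deepest cell fell among those with 0. Full counts were summed in each group and compared as a log2 ratio of CPM with an exact conditional binomial interval. A cell with 0 marker counts at this depth need not lack the transcripts, and the 398 cells still held 198 CPM of the markers in their full counts, against 915 CPM in the 162.

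Mitotic kinesins were higher in the cells with marker counts and transport kinesins only slightly so. The mitotic group stood at 897 CPM against 542 CPM, a log2 ratio of 0.73 (0.54 to 0.92), and within barcode sets 1 and 2 the ratio was 0.70 and 0.77. With 4 other random thinnings it ran from 0.90 to 1.25, so the value given is the lowest of the 5, and without the deepest cell it was 0.78. The transport group stood at 474 CPM against 389 CPM, a log2 ratio of 0.29 (0.04 to 0.53), and the other kinesins at -0.14 (-0.72 to 0.41). With the 4 other thinnings the transport ratio ran from 0.18 to 0.22, so the value given is the highest of the 5. The mitotic ratio exceeded the transport ratio by 0.44 (0.13 to 0.76). That difference sets the lowest mitotic value of the 5 thinnings against the highest transport value. At equal depth 56.2% of cells with marker counts had a mitotic kinesin count, against 33.9% of cells with none, while for transport kinesins the shares were 38.3% and 33.4%.

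In steps, the mitotic group was at 542 CPM (499 to 588) in cells with 0 marker counts, at 858 CPM (757 to 968) in the 115 cells with 1 and at 995 CPM (825 to 1190) in the 47 cells with 2 or more. The intervals at 1 and at 2 or more overlap. The transport group was at 389 CPM (353 to 428), 517 CPM (440 to 605) and 365 CPM (265 to 490) in the same steps, with no steady direction. Its ratio of the last step to the first was -0.09. That last step held only 44 transport counts and its interval overlaps the others, so it cannot show whether the slight excess above held there.

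**Figure D2:**
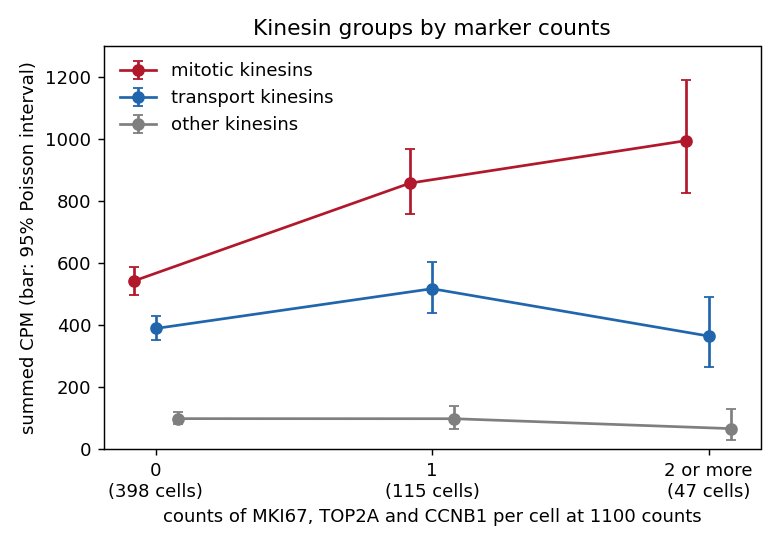
Summed CPM (vertical axis, from 0) of mitotic, transport and other kinesins in cells grouped by their counts of MKI67, TOP2A and CCNB1 at 1100 counts per cell (horizontal axis). Bars are 95% Poisson intervals; mitotic kinesins stood at 542, 858 and 995 CPM, and transport kinesins at 389, 517 and 365 CPM.

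Single mitotic kinesins all lay above 0 in this comparison. KIF14 had 21 counts in the cells with markers and 17 in those without, a log2 ratio of 1.63 (0.64 to 2.64). KIF23 stood at 155 against 87.2 CPM (log2 ratio 0.83, 0.35 to 1.30), KIF20A at 117 against 66.6 CPM (0.82, 0.27 to 1.36) and KIF2C at 183 against 106 CPM (0.79, 0.35 to 1.22). KIF22 stood at 146 against 86.3 CPM (0.75, 0.27 to 1.23). For KIF11 (0.70), KIFC1 (0.55), KIF4A (0.39) and KIF18B (0.07, -0.61 to 0.72) the intervals reach below 0. These values varied with the thinning. With the 4 other thinnings KIF11 ran from 1.10 to 1.65, KIF4A from 0.62 to 1.30 and KIF18B from 0.22 to 0.46. KIF23 ran from 1.12 to 1.82 and KIF2C from 1.12 to 1.44, so all 5 lay above the values given. KIF14 ran lower than its value given, from 1.20 to 1.40, and the ranges of KIF20A, KIF22 and KIFC1 included theirs.

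Among transport kinesins KIFC3 was the exception, with 29 counts against 34, at 68.1 and 31.9 CPM, a log2 ratio of 1.09 (0.33 to 1.85). It was at 1.39 in barcode set 1 and 0.40 in set 2, and between -0.01 and 0.83 with the other thinnings, so its place beside the mitotic motors rests on the random thinning used. Of the 9 transport motors 6 lay above 0, with a median of 0.23, where the median of all genes was -0.01. KIF13A stood at 0.41, KIF5B at 0.34 (-0.21 to 0.87), KIF1C at 0.32, KIF21A at 0.23 and KIF3C at 0.10, and below 0 were KIF3B at -0.18, KIF1B at -0.30 and KIF13B at -0.32. Of the 20 kinesins with at least 30 counts in these cells, KIF14 and KIFC3 reached a log2 ratio of 1, where 1.24% of 6025 genes did. With the other thinnings 5 or 6 kinesins did, so how many single motors passed this size varied with the thinning. The share of all genes is given only for the thinning used here. None of the 20 stood at -1 or lower, where 2.56% of genes did.

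A denser reading of mitosis used a list of 30 genes that work beside these motors, among them the midzone bundler PRC1, the KIF23 partner RACGAP1, the spindle factor TPX2 and the passenger complex gene BIRC5. The list was put to this use after the marker counts had proved thin. None of the 42 kinesin rows and none of the 3 markers is in it, but the kinetochore kinesin gene CENPE is. BIRC5 gave 14.3% and UBE2C 10.9% of its counts. The 195 cells with at least 4 of these counts at equal depth were compared with the 221 cells with at most 1, with median totals of 2448 and 2097 counts.

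Here the roles parted. All 9 mitotic kinesins with at least 30 counts had a log2 ratio above 1, where 3.39% of 5188 genes did, and 0 of 8 transport kinesins did. None of these 17 kinesins stood at -1 or lower, where 1.41% of genes did. Below the 30-count minimum, and named after its values were seen, KIF26B had 3 counts in the cells rich in partners against 20 in those poor in them, a log2 ratio of -2.80 (-5.19 to -1.04), and -2.39 and -3.32 in the barcode sets. In the same way KIF26A had 20 against 9 counts (1.09, -0.11 to 2.41). KIF4A stood at 81.5 against 9.05 CPM, a log2 ratio of 3.17 (1.85 to 4.86), and KIF20A at 146 against 16.3 CPM (3.16, 2.17 to 4.34). KIF23 stood at 191 against 27.2 CPM (2.81, 2.03 to 3.70), KIF2C at 236 against 41.6 CPM (2.50, 1.86 to 3.21) and KIF11 at 81.5 against 16.3 CPM (2.32, 1.28 to 3.54). KIF14 (2.11), KIFC1 (1.83), KIF18B (1.82) and KIF22 (1.67, 1.01 to 2.38) were lower in this order, with intervals that overlap those of the genes above them in part. KIF22 had the lowest ratio of the 9 and was also found in 4.98% of the cells poor in partner counts, where KIF2C was found in 5.43%, KIF20A in 2.26% and KIF4A in 0.452%, at equal depth.

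The transport motors ran from KIF3C at -0.56 (-1.55 to 0.40) to KIF5B at 0.76 (0.17 to 1.37), the only one whose interval lay above 0. KIFC3, high beside the marker counts, stood at -0.13 (-1.04 to 0.78). Summed, mitotic kinesins were at 1103 against 210 CPM (log2 ratio 2.39, 2.11 to 2.69) and transport kinesins at 458 against 369 CPM (0.31, 0.04 to 0.58), a difference between the log2 ratios of 2.08 (1.68 to 2.49). In barcode sets 1 and 2 the mitotic ratio was 2.37 and 2.44 and the transport ratio 0.16 and 0.58. Without the deepest cell the counts were again 9 of 9 and 0 of 8. Ribosomal protein genes, as a gauge of the scaling, stood at -0.13.

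**Figure D3:**
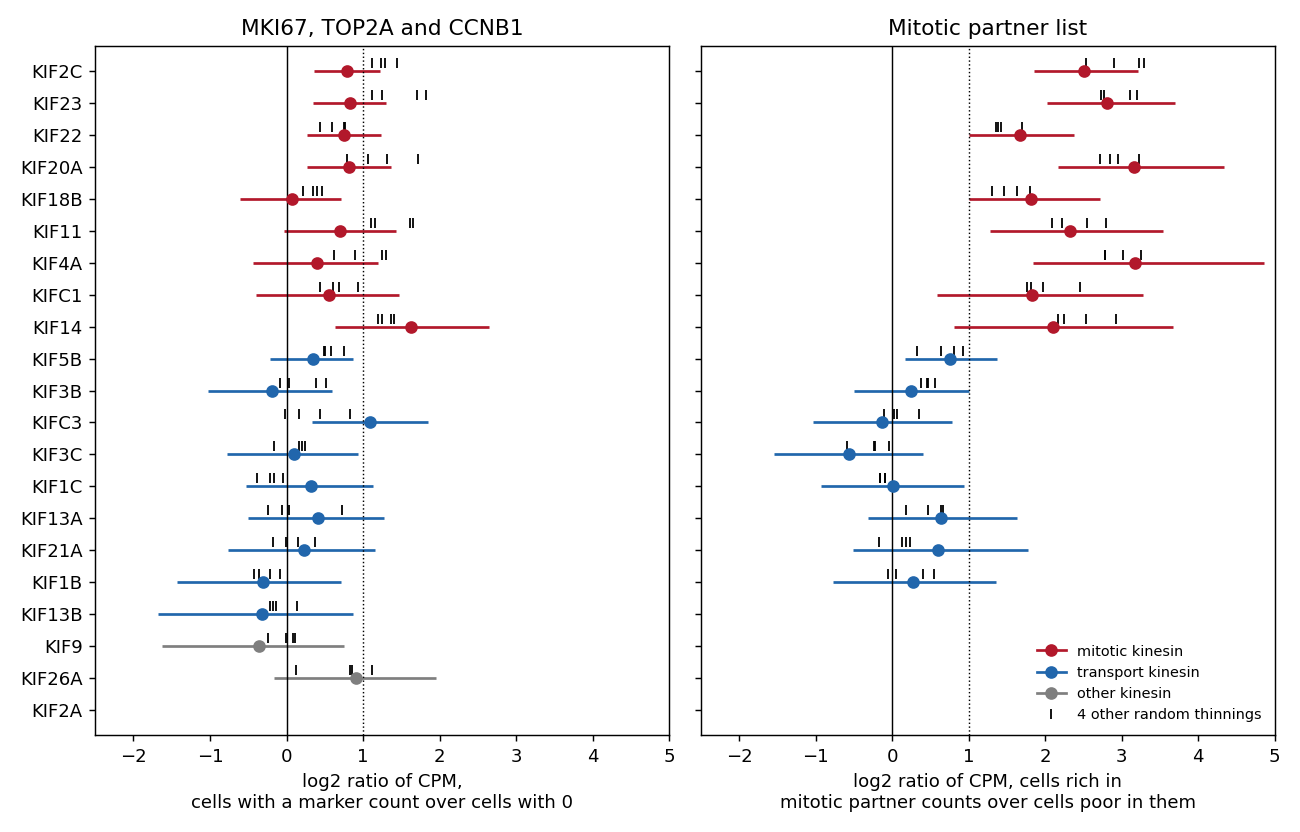
Log2 ratio of CPM for each kinesin (horizontal axis, 0 solid and 1 dotted) between cells with and without MKI67, TOP2A or CCNB1 counts (left) and between cells rich and poor in mitotic partner counts (right). Points have 95% binomial intervals, ticks are 4 other random thinnings, and genes with fewer than 30 counts in the compared cells have no point; on the right all 9 mitotic kinesins lie above 1 and the transport kinesins from -0.56 to 0.76.

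Replication genes parted the roles less than the partner list did. The 233 cells with at least 3 counts of a list of 23 replication genes, among them TYMS, MCM7 and PCNA, were compared with the 226 cells with at most 1. Mitotic kinesins stood at 645 against 525 CPM, a log2 ratio of 0.30 (0.08 to 0.52), at 0.47 in set 1 and 0.11 in set 2, and transport kinesins at 0.01 (-0.26 to 0.27). The difference between these log2 ratios was 0.29 (-0.06 to 0.64), an interval that overlaps that of the difference beside the markers (0.13 to 0.76). Of the 9 mitotic kinesins with enough counts 7 lay above 0 and 2 below, with a median of 0.48. Of the 8 transport kinesins 5 lay above 0 and 3 below, with a median of 0.13. None of the 17 kinesins with enough counts reached a log2 ratio of 1, where 1.81% of 5290 genes did, and none stood at -1 or lower, where 1.49% did. Below that minimum KIF2A had 19 against 6 counts (1.63, 0.25 to 3.24), named after its values were seen. KIF11 had the highest ratio, 0.92 (0.06 to 1.83), and among the mitotic motors KIF20A (-0.25, -0.91 to 0.41) and KIF14 (-0.90, -2.11 to 0.23) had the lowest, but these intervals overlap with that of KIF11. The transport motor KIF3C stood at -0.90 (-1.85 to -0.01).

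Mitotic kinesins also went with one another. For each of them, the cells with 2 or more thinned counts of the other mitotic kinesins were compared with the cells with 0. All 9 had a log2 ratio above 1, from 1.02 (0.42 to 1.60) for KIF22 to 2.85 (1.50 to 4.36) for KIF14, with KIF11 at 2.02, KIF4A at 1.94 and KIF23 at 1.88 (1.31 to 2.45). Without the deepest cell they ran from 1.22 to 2.99. Over the 9 groupings pooled, 2.92% of readings of all genes with at least 30 counts reached 1, and KIF14, with 17 and 7 counts, lay below that minimum in its own grouping. The same reading for the transport kinesins gave 4 of 9 above 0 and none at 1, from -1.48 (-6.84 to 1.13) for KIF13B to 0.81 (-0.74 to 2.08) for KIF13A, and every interval spanned 0. In those groupings 3.72% of readings of all genes reached 1, so none of 9 is near the background. KIF13B, with 1 and 25 counts, lay below the minimum of 30 counts in its own grouping. Since 30 to 39 cells had 2 or more counts of other transport kinesins, this depth could not show a modest relation among them. Across the 560 thinned cells, which share their depth, Spearman's rho was 0.47 between mitotic kinesins and their partner list. For mitotic kinesins it was 0.20 with the 3 markers, 0.12 with the replication list and 0.06 with transport kinesins.

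**Figure D4:**
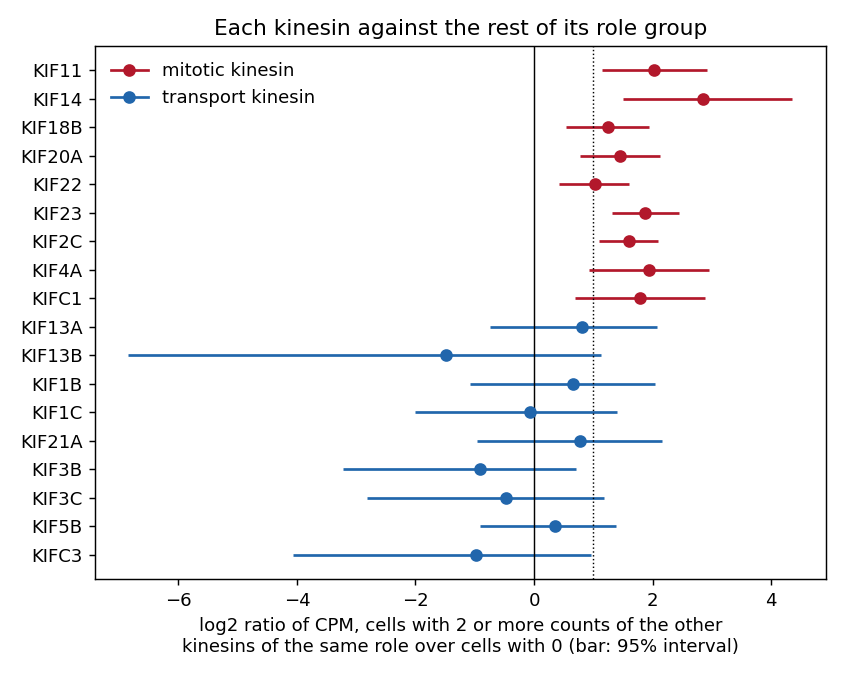
Log2 ratio of CPM (horizontal axis, 0 solid and 1 dotted) of each kinesin between cells with 2 or more counts of the other kinesins of its role and cells with 0, at 1100 counts per cell. Bars are 95% binomial intervals; the 9 mitotic kinesins lie from 1.02 to 2.85 and the 9 transport kinesins from -1.48 to 0.81.

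What else went with the mitotic kinesins was read from the 95 cells with 2 or more of their counts against the 334 cells with 0, where 2.81% of 5261 genes reached a log2 ratio of 1. Their median totals were 2573 and 2098 counts. The 3 markers were higher together, at 670 against 270 CPM (log2 ratio 1.31, 1.03 to 1.59), with CCNB1 at 1.95 (1.36 to 2.55), MKI67 at 1.16 and TOP2A at 0.76 (-0.31 to 1.78). Of the 30 mitotic partners, 21 had enough counts and 17 of them reached 1. CENPF stood at 1.76, UBE2C at 1.71, TPX2 at 1.56 (1.23 to 1.89) and BIRC5 at 0.80 (0.52 to 1.07).

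The nuclear noncoding RNA MALAT1 had the highest ratio of the 3794 other genes with at least 50 counts, 827 against 113 CPM (log2 ratio 2.87, 2.53 to 3.23). It was followed by CKAP2, a spindle protein gene, at 2.27, the kinase genes AURKA at 2.22 (1.80 to 2.65) and PLK1 at 2.16 (1.74 to 2.57), PSRC1, which works at microtubule ends, at 2.14, and REEP4, which clears endoplasmic reticulum from mitotic chromosomes, at 2.12. FAM64A, NUSAP1, C9orf140 and SPAG5 completed the 10, the last at 1.89. These are the extremes of all ratios, and their intervals do not allow for that choice.

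In the lists of other systems the count of genes at 1 lay near the 2.81% of all genes. The replication list summed to a log2 ratio of 0.36 (0.24 to 0.49), the transport partners to 0.02 and the dynein and dynactin genes to 0.03. Of the 23 replication genes 1 of 19 with enough counts reached a log2 ratio of 1, TYMS at 1.00, and MCM3, MCM7 and PCNA stood at 0.55, 0.46 and 0.24. Of 9 transport partners none reached it, with KLC1, the light chain that links KIF5B to cargo, at 134 against 143 CPM (-0.09, -0.64 to 0.43), and RHOT2 and PLEKHM2, which tie motors to mitochondria and lysosomes, at 0.25 and 0.20. Of 16 genes of dynein and dynactin, which move toward the minus end, none reached it, with DYNLL1 at 0.06, DYNLT1 at 0.23, DCTN3 at -0.07 and DYNLRB1 at -0.24. The highest of the 16 was DYNC1LI2, named after its values were seen, at 18 against 25 counts, just under the size (0.999, 0.04 to 1.93).

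KIF5B had the highest ratio of the 8 transport motors with enough counts in these cells, at 147 against 60.1 CPM, a log2 ratio of 1.29 (0.68 to 1.90), and at 1.36 and 1.29 in the barcode sets. Without the deepest cell it was at 1.10 (0.43 to 1.76). KIF21A stood at 0.92 (-0.13 to 1.93), or 1.04 without that cell, with an interval that overlaps that of KIF5B, and KIF1C at -1.19 (-2.72 to 0.06), the only 1 of 8 transport kinesins at -1 or lower, where 2.41% of genes stood. KIF26B, below the minimum here too, had 3 against 23 counts (-1.47, -3.84 to 0.26). The transport group as a whole was at 0.31 (0.02 to 0.59). Kinesin-rich cells were also the deeper ones, and the part of depth in these values was not tested beyond scaling and equal-depth grouping.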

How the data were processed

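The authors deposited 1 table of whole-number counts per gene row and cell, not normalized. Bowtie2 2.1.0 and hg19 are named in the submitters' processing notes. Not given in the sources used here were the counting tool, annotation, cell filter, and whether a count is a molecule or a read. A row named unknown (2 counts, 0.000130%) was left out. No columns were assigned to samples, so no count model was run, no p-value was computed, and cells were not used as replicates. Cells were sorted singly and doublets were not called, so whether a column such as that of the deepest cell holds more than 1 cell was not tested.

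CPM is the summed count over the summed total. Intervals (95%) are exact Poisson for levels, exact Clopper-Pearson for shares and exact conditional binomial for ratios. Where a limit is given for a count of 0, it is the upper end of the exact interval. Cells were thinned without replacement to 1100 counts. The log2 ratio of 1 was used throughout, and the minimum of 30 counts except where the text says otherwise. Ratio code was tested on simulated data.

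The members and gene lists were chosen with earlier results of these data known. Named genes are all kinesins with at least 30 counts, the 4 highest members of each other list and the 10 highest ratios beside mitotic kinesins; others were named after their values were seen. A result under this rule is not reported here. The partner, replication and companion groupings were added after the marker counts were seen. Promoters come from RefSeq (GRCh38.p14), matched by symbol, and protein sequences were not used here. Python 3.11.15, numpy 2.4.6, scipy 1.17.1 and pandas 2.3.3 were used.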

Additional observations from a re-analysis of the deposited data

How the results depend on the processing

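No paired analysis was possible because the columns carry no sample or replicate number. Mitotic kinesins stayed above 0 beside the markers under all 16 alternatives, and the cause of each shift below was not tested. Their log2 ratio was 0.47 with MKI67 alone, 0.43 with TOP2A alone, 1.04 with CCNB1 alone, 0.98, 1.25 and 1.06 with thinnings 2, 3 and 5, 1.30 at 1500 counts per cell and 1.32 with unthinned markers (the last added after seeing the data). The transport ratio was -0.093 with 2 or more marker counts (also added), and KIFC3 reversed to -0.015 with thinning 4. Kinesins at a log2 ratio of 1 numbered 1 at 800 counts per cell and in barcode set 2, and 5 with CCNB1 alone and with thinnings 2 and 5. They numbered 6 with thinnings 3 and 4, 7 at 1500 counts per cell and with unthinned markers, and 8 with no minimum of counts. The share of all genes at that size is not given for these settings, so these numbers have no background beside them.

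Beside the partner list, whose alternatives were all added after seeing the data, the mitotic ratio was 1.81 at 800 and 1.98 at 1500 counts per cell, and 1.85 without BIRC5 and UBE2C. All mitotic kinesins with enough counts reached 1 under each of these 12 alternatives, but only 4 had enough counts in thinned sums and 5 in barcode set 1. The share of all genes at that size is known only for the setting as reported (3.39%), so these counts have no background of their own. The transport ratio was 0.58 in barcode set 2, the other kinesins were at -0.56 with thinning 3, and 1 transport kinesin, KIF1B, reached 1 at 1500 counts per cell. Between kinesin-rich and kinesin-free cells, partners stood at 1.27 with 1 or more kinesin counts and at 1.66 and 1.33 in barcode sets 1 and 2, markers at 0.96 and transport partners at -0.38 in thinned counts, and replication genes at 0.63 and 0.11 in sets 1 and 2 and 0.23, 0.16 and 0.19 with thinnings 2, 4 and 5. Levels without ribosomal protein genes in the total were 773, 492 and 112 CPM for mitotic, transport and other kinesins, and as means of cells 602 and 372 CPM for the first and second. Depth limits what can be read for single motors, since each thinned cell holds 1100 counts.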

Other observations

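Several mitotic motors were nearly absent beside abundant ones of the same role. KIF18A had 4 counts (2.60 CPM, 0.709 to 6.66) where KIF18B, of the same family, had 98. KIF15, which backs up KIF11 at the spindle poles, had 7 counts where KIF11 had 74. KIF20B had 4 counts and KIF20A 123. The promoter windows of KIF15, KIF18A and KIF20B each hold TTTGAA, as those of the well counted motors mostly do. With the rows below 30 counts included 10 of 14 mitotic kinesins hold it, against 1 of 12 transport and 0 of 8 other kinesins with a window. It was present in 15.2% of all 35116 windows, a share of single windows that is not like a count of genes. Whether capture or annotation of single 3′ ends differs between these genes was not tested.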
